A study of Mus musculus with 8 samples.

Results

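Fgf21 and Gdf15 encode secreted stress hormones and were followed here through the cells of B16F10 mouse melanomas. They were picked by gene symbol from the 31053 genes listed for every library, and 2 of 2 were found. FGF21 is best known as a hormone of the fasted liver and acts through FGFR1 only on cells that also carry the co-receptor β-Klotho (Klb). GDF15, a distant member of the TGF-β family, acts on the hindbrain through GFRAL and its signalling partner RET, where it lowers appetite. Both genes are known targets of ATF4 and CHOP, transcription factors of the Integrated Stress Response (ISR), in which phosphorylation of eIF2α slows general translation while ATF4 translation increases. Gdf15 is also a known p53 target and is made by macrophages.

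B16F10 is a pigmented melanoma cell line of C57BL/6 origin. Its cells were grown under the skin to tumours of 300 mm3 in 4 Atf4WT/WT and 4 Atf4Δ/Δ hosts, and each tumour gave 1 library of droplet single-cell RNA sequencing with counting at the 3′ end of the transcript. Hosts of both genotypes carried the ubiquitous Rosa26::CreERT2 transgene and received tamoxifen by mouth, which deletes exons of Atf4 only in Atf4fl/fl hosts, so the injected melanoma cells kept Atf4 in all 8 tumours. Per the labels the hosts were 12 weeks old (the study's methods give a lower age), with 2 males and 2 females in the Atf4WT/WT group and 3 males and 1 female in the Atf4Δ/Δ group. Excision by this transgene is not complete in every cell, and the instrument on which each library was sequenced was not given in the sources used here, so a sequencing batch could not be examined.

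The libraries held between 37283598 and 74942137 unique molecular identifiers (UMIs, each standing for 1 captured RNA molecule). Of 41925 deposited barcodes, 28411 passed the filters of the study (200 to 5000 genes and at most 7.5% mitochondrial UMIs), which left 2709 to 5576 cells per tumour with a median of 7848 to 11054.5 UMIs. Among these, 96 barcode sequences occurred in more than 1 library. A cluster of 242 cells, 231 of them from Atf4WT/WT tumour 4, was removed for its median mitochondrial share of 7.03%, and 28169 cells were described. Levels are given as CPM, the UMIs of a gene per 1000000 UMIs summed over the cells of a class in 1 tumour. In such sums, fewer cells expressing a gene and less RNA per cell cannot be told apart.

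Fgf21 (ENSMUSG00000030827) is annotated on the minus strand at chr7:45613886-45615490 (GRCm38) with 1 transcript of 3 exons. Gdf15 (ENSMUSG00000038508) lies on the minus strand at chr8:70629393-70632456 with 2 transcripts that begin at 2 starts, which 3′ counting does not separate. No other annotated gene overlapped either of them. The 250 bases before the start are shown because both genes are known targets of stress-activated transcription factors. Sequences are from RefSeq (GRCm38.p6), minus strand, 5′ to 3′, at chr7:45615491-45615740 for Fgf21 and chr8:70632457-70632706 for the upstream start of Gdf15, and capitals mark matches to the motifs searched.
Fgf21: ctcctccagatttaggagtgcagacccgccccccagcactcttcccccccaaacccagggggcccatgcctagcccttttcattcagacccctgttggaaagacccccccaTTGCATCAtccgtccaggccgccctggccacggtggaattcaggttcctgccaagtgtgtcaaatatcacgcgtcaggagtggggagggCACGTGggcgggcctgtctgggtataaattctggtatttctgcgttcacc
Gdf15: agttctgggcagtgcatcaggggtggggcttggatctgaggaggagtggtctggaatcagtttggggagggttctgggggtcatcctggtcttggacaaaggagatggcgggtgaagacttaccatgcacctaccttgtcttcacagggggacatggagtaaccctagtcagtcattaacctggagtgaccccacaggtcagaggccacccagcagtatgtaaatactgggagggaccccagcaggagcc

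The motifs searched on both strands were TGATGNAA (the C/EBP-ATF composite element bound by ATF4 with C/EBP partners), TGACGTCA (the cAMP response element), CACGTG (an E-box) and TGACNNNGC (the core of the antioxidant response element). The Fgf21 window held TTGCATCA, the opposite strand of TGATGNAA, 131 bases before the start, and CACGTG 44 bases before it. The Gdf15 window held none of the 4 motifs, and the 250 bases before its second start, which overlap an exon of the other transcript and are not printed, held CACGTG 77 bases before that start. Among 32851 windows of the same length before annotated starts, 3.45% held TGATGNAA, 1.55% TGACGTCA, 6.02% CACGTG and 10.2% TGACNNNGC. A match is a description of the letters and was not tested for binding.

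Clusters were built without Fgf21 and Gdf15 among the clustering genes, and differences between clusters or classes are therefore described without a test. Melanoma-like cells made up 23719 of the 28169 cells in 8 clusters, in each of which 9 of 10 melanoma markers (Dct, Pmel and Mlana among them) were detected in most cells. The remaining cells were 727 CAF-like cells (cancer-associated fibroblasts, led by Col1a1 and Col3a1), 898 immune cells, 38 endothelial-like cells and 3 clusters of low UMI counts that stayed unnamed. Melanoma-like cells held 257227758 and immune cells 1795802 of the 267539888 UMIs of all genes. Of the 2950 Fgf21 UMIs, 2801 or 94.95% were in melanoma-like cells, which is slightly below the share of all UMIs in these cells. Of the 930 Gdf15 UMIs, 596 or 64.1% were in melanoma-like cells and 270 or 29.0% were in the immune cells. The 2 hormone genes thus had different cells behind their counts, which the plot of levels by cluster and class shows.

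**Figure D1:**
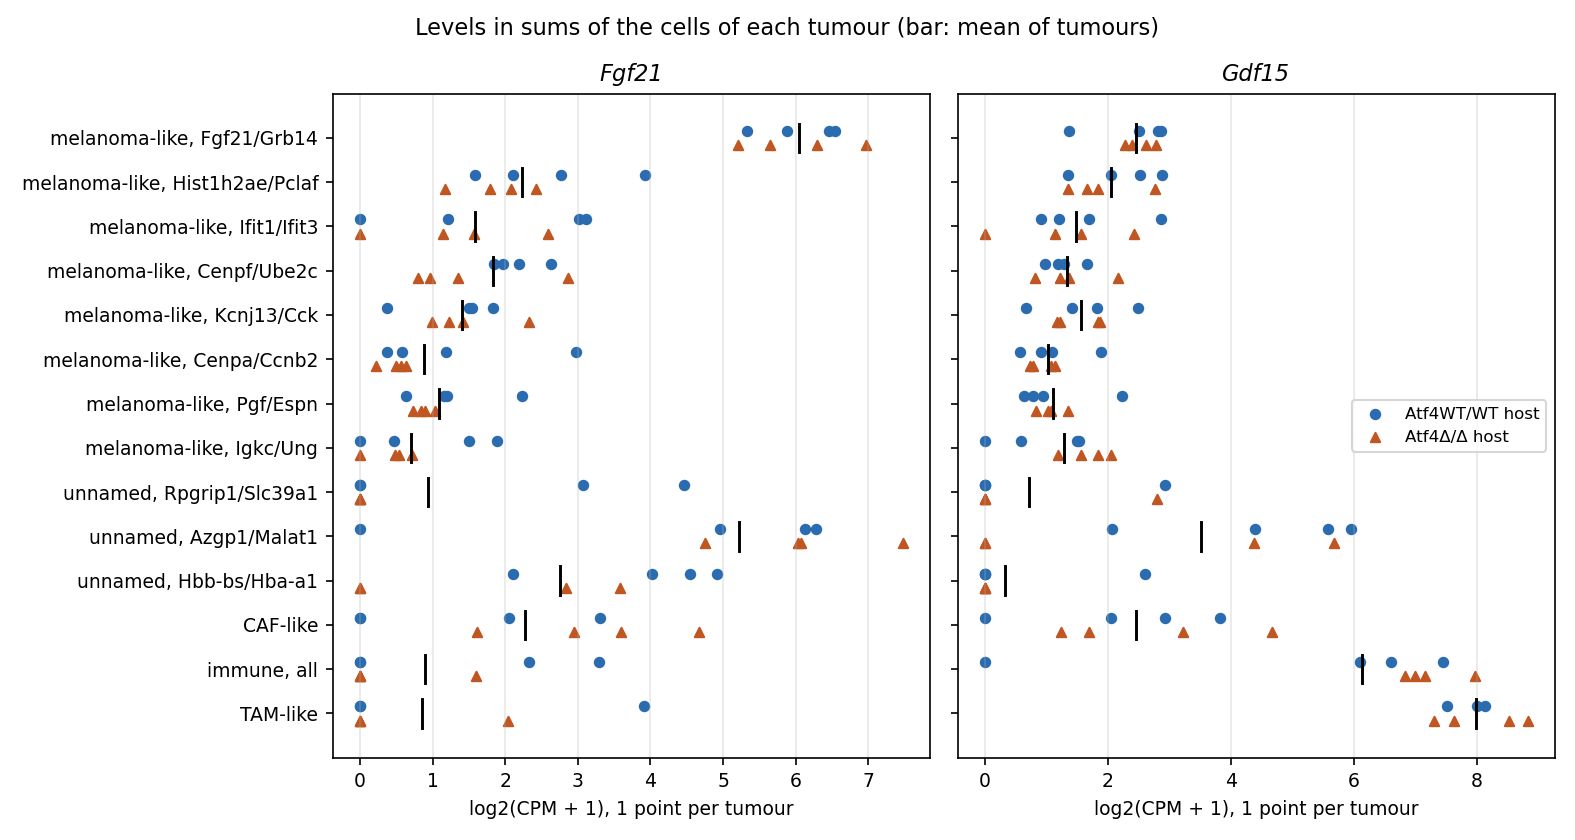
Level of Fgf21 (left) and Gdf15 (right) as log2(CPM + 1) in sums of the cells of each tumour, for the 8 melanoma-like clusters, 3 unnamed clusters, CAF-like cells, all immune cells and TAM-like cells (tumour-associated macrophages). Circles are Atf4WT/WT and triangles Atf4Δ/Δ tumours with at least 10 cells, and black bars are means. Fgf21 lies between 36.0 and 124 CPM in the cluster it leads and at or below 14.2 CPM in every other melanoma-like cluster, whereas Gdf15 lies between 158 and 454 CPM in TAM-like cells.

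Within the melanoma-like cells, Fgf21 was concentrated in 1 cluster, whose leading genes were Fgf21, Grb14, Cdsn, Akr1b7 and Kdelr3. Grb14 encodes an adaptor of receptor tyrosine kinases and Kdelr3 a receptor that returns proteins to the endoplasmic reticulum (ER). In Atf4WT/WT tumours 1 to 4, Fgf21 was at 39.1, 87.3, 58.0 and 92.4 CPM in this cluster. In Atf4Δ/Δ tumours 1 to 4 it was at 77.6, 36.0, 49.1 and 124 CPM. The highest and the lowest of the 8 values were both from Atf4Δ/Δ hosts, and the genotypes overlapped.

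The mean was 70.4 ± 30.3 CPM in this cluster (SD, n = 8 tumours) against 2.56 CPM in the other melanoma-like cells of the same tumours. The paired difference was 4.37 ± 1.00 on the log2(CPM + 1) scale (SD, n = 8), in the same direction in 8 of 8 tumours. The cluster held 14.9% of the melanoma-like cells and 81.8% of their Fgf21 UMIs (64.0% to 94.0% per tumour). Fgf21 itself was left out of the genes that defined the cluster, although the genes that move with it were used. The cluster was chosen as the melanoma-like cluster highest in Fgf21, so the choice favoured the direction of the paired difference.

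The other melanoma-like clusters followed at much lower Fgf21 levels. The S-phase cluster led by Hist1h2ae and Pclaf had 4.10 CPM (pooled over tumours), the interferon cluster led by Ifit1 and Ifit3 had 3.94 CPM, the G2/M cluster led by Cenpf and Ube2c had 2.71 CPM, and the Kcnj13/Cck cluster had 2.08 CPM. The Pgf/Espn cluster, which also held Car9, Bnip3 and Ndrg1 among its leading genes, had 1.08 CPM, the Cenpa/Ccnb2 cluster 1.03 CPM and the Igkc/Ung cluster 0.925 CPM. The ranges over tumours of these 7 clusters overlapped, from 0 to 14.2 CPM, and the clusters were therefore also compared within each tumour. The S-phase cluster was above the Kcnj13/Cck, Pgf/Espn, Cenpa/Ccnb2 and Igkc/Ung clusters in 8 of 8 tumours, by 0.83 ± 0.78 to 1.54 ± 0.78 on the log2(CPM + 1) scale (mean and SD of 8 tumours), and the G2/M cluster was above the Igkc/Ung cluster in 8 of 8. Neighbours in the order below the Fgf21/Grb14 cluster differed in the same direction in 4 to 7 of 8 tumours, by means at or below their SD.

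Gdf15 was spread more evenly over the same clusters. It was highest in the Fgf21/Grb14 cluster at 4.73 ± 1.54 CPM (SD, n = 8), against 2.04 CPM in the other melanoma-like cells, and the paired difference was 0.90 ± 0.50 on the log2(CPM + 1) scale, with the cluster higher in 7 of 8 tumours. In Atf4WT/WT tumours 1 to 4 the cluster had 1.6, 4.71, 6.31 and 6.05 CPM of Gdf15, and in Atf4Δ/Δ tumours 3.86, 5.18, 4.25 and 5.88 CPM. The lowest of these, Atf4WT/WT tumour 1, rested on 7 UMIs. The next clusters were Hist1h2ae/Pclaf at 3.19 CPM, Ifit1/Ifit3 at 3.17 CPM and Kcnj13/Cck at 2.31 CPM, and the remaining 4 lay between 1.03 and 1.70 CPM. Within tumours, neighbours in this order differed in the same direction in 4 to 6 of 8, by means below their SD, while the Fgf21/Grb14 and Hist1h2ae/Pclaf clusters were both above the Cenpf/Ube2c, Pgf/Espn and Cenpa/Ccnb2 clusters in 8 of 8. The Fgf21/Grb14 cluster held 26.8% of the Gdf15 UMIs of the melanoma-like cells.

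Cells differ in depth, so each was also thinned to 3000 UMIs. A Fgf21 UMI was then found in 9.79% of the cells of the Fgf21/Grb14 cluster (5.80% to 13.4% per tumour; 17.6% before thinning) and in 0.242% to 1.15% of the cells of the other melanoma-like clusters. A Gdf15 UMI was found in 1.23% of the cells of the Fgf21/Grb14 cluster and in 0.290% to 0.796% of the others. The detections of Fgf21 were concentrated in few cells. Of 934 melanoma-like cells with a Fgf21 UMI, 526 had 1 and 59 had at least 10, with 57 in the highest cell, and the top 1% of cells held 67.6% of the UMIs. Of 448 cells with a Gdf15 UMI, 380 had 1 and 1 had at least 10.

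The share of cells in the Fgf21/Grb14 cluster and the Fgf21 level inside it varied separately from tumour to tumour. The cluster held 10.9%, 14.1%, 22.4% and 22.4% of the melanoma-like cells in Atf4WT/WT tumours 1 to 4 and 15.04%, 16.2%, 13.2% and 10.9% in Atf4Δ/Δ tumours 1 to 4. Atf4WT/WT tumour 1 and Atf4Δ/Δ tumour 4 had the same share but 39.1 and 124 CPM of Fgf21 in the cluster, and in Atf4Δ/Δ tumour 4 the top 1% of cells held 85.4% of the UMIs.

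**Figure D2:**
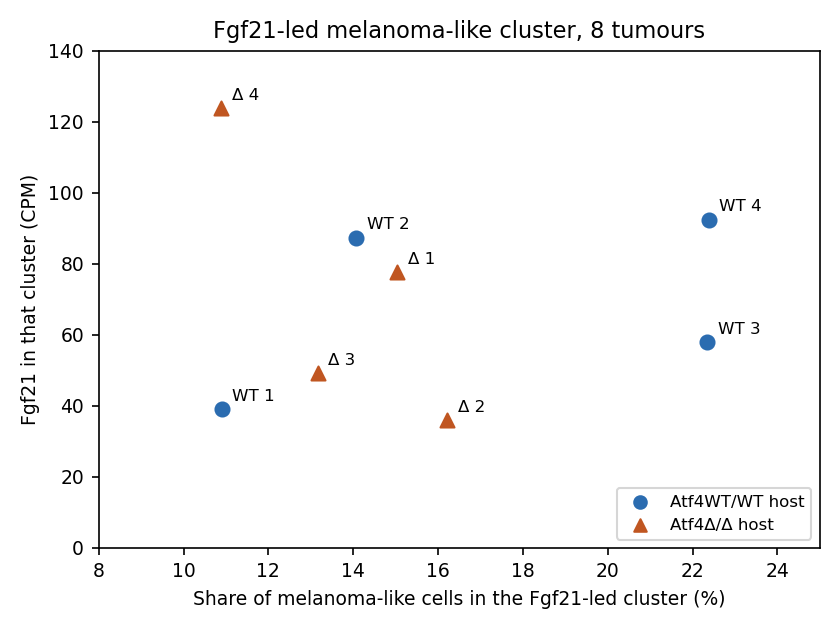
Share of melanoma-like cells in the Fgf21-led cluster (x axis, %) against the Fgf21 level in that cluster (y axis, CPM) for the 8 tumours, labelled by host genotype and replicate. Shares run from 10.9% to 22.4% and levels from 36.0 to 124 CPM, and the highest level belongs to a tumour with one of the lowest shares.

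The clustering was repeated at a finer resolution, which gave 13 melanoma-like clusters. The 4 clusters with the highest mean over 34 ISR target genes (6.89, 6.68, 6.67 and 6.55 log2 CPM) were also the 4 highest in Fgf21. These were a Fgf21/Grb14 cluster at 83.4 CPM, an Ero1l/Isg20/P4ha2 cluster at 22.3 CPM, a Hist1h2ae/Cdc45 S-phase cluster at 18.1 CPM and an Azgp1/Cth cluster at 15.4 CPM. Ero1l encodes an oxidase of ER protein folding and Cth the enzyme that makes cysteine from cystathionine. Gdf15 was highest in the Azgp1/Cth cluster, at 7.81 CPM from 88 UMIs in 1277 cells, with 1.54 to 18.8 CPM per tumour, and the Hist1h2ae/Cdc45 and Fgf21/Grb14 clusters followed at 4.67 and 4.55 CPM. The median mitochondrial share of the Azgp1/Cth cluster was 1.475%, against 4.805% to 5.901% in the other melanoma-like clusters. What this low share reflects was not tested. The melanoma-like state highest in Gdf15 thus depended on the resolution, whereas that of Fgf21 shared 2417 of its 2440 cells with the cluster found before.

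The lists of stress genes describe the Fgf21/Grb14 cluster further. Their genes were not left out of the clustering, and the cluster was chosen for its Fgf21 level. The counts of tumours below are therefore descriptions and no test. Of 34 ISR targets, 30 were higher in it than in the other melanoma-like cells in 8 of 8 tumours, with a median difference of 0.93 on the log2(CPM + 1) scale, whereas 1862 of all 9256 genes of at least 5 CPM were higher in 8 of 8 tumours and the median of all was −0.11. The largest differences were those of Nupr1 (2.29 ± 0.60; 682 against 151 CPM), a small chromatin protein induced by stress, of Cth (2.14 ± 0.63) and of Aldh1l2 (1.98 ± 0.47), an enzyme of mitochondrial folate metabolism. The ISR targets that were not higher in every tumour were Slc7a5, Shmt2, Slc7a3 and Stc2. Of 9 ISR kinases and regulators, 3 were higher in 8 of 8 tumours and 3 were lower in 8 of 8, with a median difference of −0.14. Among the higher ones, Ppp1r15a, which directs the phosphatase of eIF2α, differed by 1.51 ± 0.32 and Eif2ak3, the ER stress kinase PERK, by 0.82 ± 0.20. Atf4 was at 586 CPM in the cluster against 335 CPM outside it.

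All 16 ER chaperone and ATF6/XBP1 target genes were higher in the cluster in 8 of 8 tumours, with a median difference of 1.32. Dnajb9, an ER co-chaperone, differed by 1.99 ± 0.38, Hspa5, the main ER chaperone BiP, by 1.73 ± 0.26, and Herpud1, a component of ER-associated degradation, by 1.63 ± 0.32. Of 14 p53 targets, 9 were higher in 8 of 8 tumours (median 0.18), led by the antiproliferative gene Btg2 at 1.90 ± 0.44, Trp53inp1 at 1.29 ± 0.18 and the cell cycle inhibitor Cdkn1a at 1.097 ± 0.22. Of 8 NRF2 targets, 4 were higher in 8 of 8 (median 0.42), led by Srxn1 at 1.66 ± 0.19 and Hmox1 at 1.64 ± 0.19, and of 12 hypoxia genes 7 were (median 0.40), led by the collagen hydroxylase subunit P4ha1 at 0.84 ± 0.14. In contrast, all 8 S-phase genes (median −1.71) and all 8 G2/M genes (median −3.37) were lower in 8 of 8 tumours, and 6 of 8 interferon genes were (median −1.08), beside 3421 of the 9256 genes overall. Cell cycle position therefore moved with the cluster along with the stress genes, and its part in the Fgf21 level was not tested.

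The same lists were compared between melanoma-like cells with and without a UMI of each hormone gene, over the cell sums of each tumour. Cells with a Fgf21 UMI were higher than those without in the ISR targets by 1.05 ± 0.28 (mean log2 difference over the list, SD of 8 tumours) and in the ER chaperone list by 1.17 ± 0.26, in 8 of 8 tumours for both. In the p53 targets the cells with a Fgf21 UMI were higher by 0.41 ± 0.095 and in the NRF2 targets by 0.42 ± 0.15, both in 8 of 8. Cells with a Gdf15 UMI were higher in the ISR targets by 0.43 ± 0.24 (8 of 8 tumours), in the p53 targets by 0.41 ± 0.27 (8 of 8) and in the ER chaperone list by 0.38 ± 0.32 (6 of 8). In the NRF2 targets the cells with a Gdf15 UMI were higher by 0.26 ± 0.205 (7 of 8). Not every list was higher. Hypoxia genes differed by −0.03 ± 0.24 with a Fgf21 UMI (higher in 5 of 8) and by −0.18 ± 0.19 with a Gdf15 UMI (higher in 0 of 8). Interferon genes differed by −0.42 ± 0.41 with Fgf21 (higher in 1 of 8) and by −0.29 ± 0.63 with Gdf15 (higher in 3 of 8). Cells with a Fgf21 UMI were lower in S-phase genes by a mean log2 difference of −0.72 ± 0.23 and in G2/M genes by −1.16 ± 0.17 in 8 of 8 tumours, while cells with a Gdf15 UMI differed by 0.00 ± 0.13 in S-phase genes (higher in 4 of 8) and by −0.17 ± 0.19 in G2/M genes (higher in 1 of 8). The difference between the hormone genes was not tested.

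Inside the Fgf21/Grb14 cluster alone, cells with a Fgf21 UMI were still higher in the ISR targets, by 0.35 ± 0.06, and in the ER chaperone list, by 0.40 ± 0.11, both in 8 of 8 tumours. For Gdf15 the corresponding values were 0.08 ± 0.20 (6 of 8) and 0.05 ± 0.33 (5 of 8), which lie within the spread between tumours. In the p53 targets the difference was 0.18 ± 0.115 (8 of 8) for Fgf21 and 0.09 ± 0.54 (4 of 8) for Gdf15. In the NRF2 targets it was −0.02 ± 0.21 (higher in 4 of 8) for Fgf21 and 0.11 ± 0.31 (4 of 8) for Gdf15. In the hypoxia genes it was −0.30 ± 0.20 (higher in 1 of 8) for Fgf21 and −0.34 ± 0.47 (2 of 8) for Gdf15. The G2/M genes had the opposite order to that over all melanoma-like cells, with −0.17 ± 0.31 for Fgf21 (higher in 3 of 8) and −1.44 ± 0.56 for Gdf15 (higher in 0 of 8, from 126 cells with a UMI). These are descriptions, since detection of a UMI picks deeper cells and sums of few cells understate low genes. Over all melanoma-like cells the median depth with and without a UMI was 10781 against 10292 for Fgf21 and 11893.5 against 10286 for Gdf15. Inside the cluster it was 10280 against 9017.5 for Fgf21 and 10691 against 9216 for Gdf15.

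**Figure D3:**
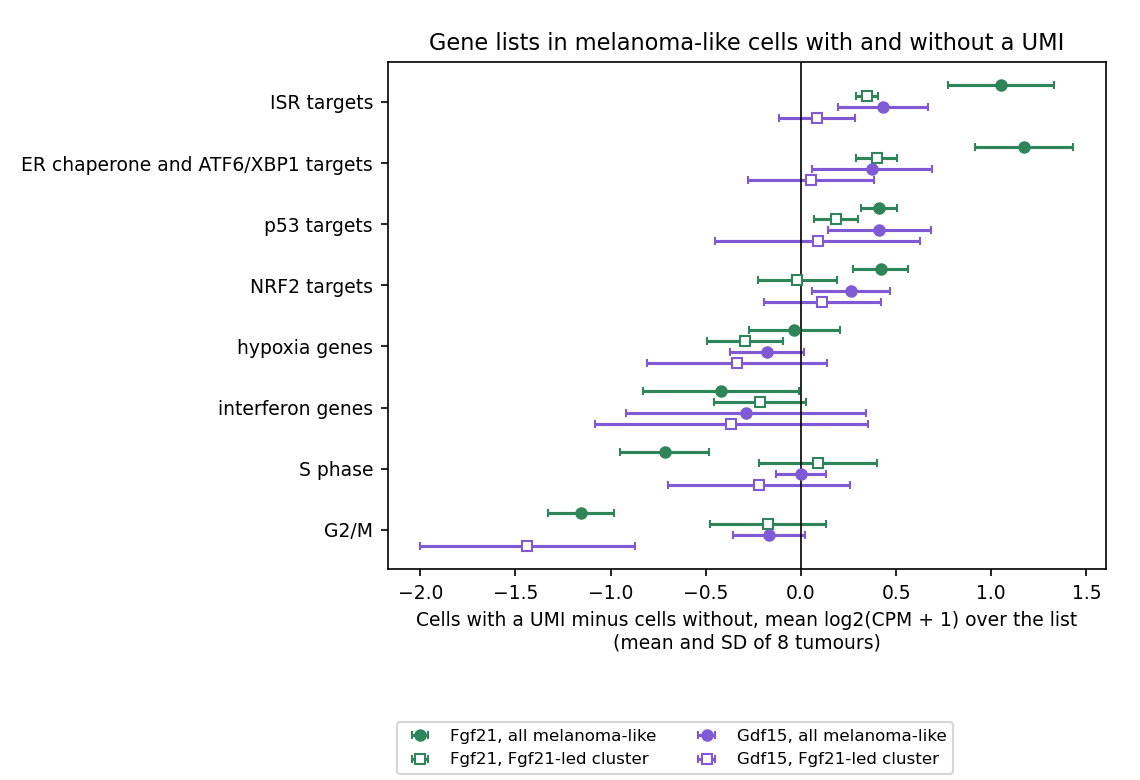
Mean log2(CPM + 1) over each gene list in melanoma-like cells with a UMI of Fgf21 (green) or Gdf15 (purple) minus that in cells without, as mean and SD of 8 tumours, over all melanoma-like cells (filled circles) and inside the Fgf21-led cluster (open squares). ISR targets are 1.05 higher with Fgf21 and 0.43 higher with Gdf15 over all melanoma-like cells, and inside the cluster 0.35 and 0.08 higher. The low G2/M value for Gdf15 inside the cluster rests on 126 cells with a UMI.

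Detection of both hormone genes in the same cells was described next. After thinning, a Gdf15 UMI was found in 2.94% of melanoma-like cells with a Fgf21 UMI and in 0.571% of those without, from 67 cells that held both before thinning. Inside the Fgf21/Grb14 cluster the shares were 2.94% and 1.05%, from 46 cells. Over all melanoma-like cells the ratio of the shares was above 1 in 7 of 8 tumours, and Atf4Δ/Δ tumour 4, with 1 such cell, was the exception at 0.269. Inside the cluster the ratio was 0.140 in that tumour, 1.02 and 1.12 in Atf4WT/WT tumours 1 and 2, and 1.51 to 7.02 in the rest. Both detections rest on few UMIs and share the depth of the cell, and no test was made of them.

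The genes whose levels followed each hormone gene were ranked over 63 sums of a melanoma-like cluster in 1 tumour, with the mean of each tumour removed. Of 9273 genes compared, those most like Fgf21 were Cyb5r1 (Pearson r = 0.943), Cdsn (0.937), Srpr (0.937), which encodes a subunit of the receptor for the signal recognition particle, Rcn3 (0.932) and Herpud1 (0.924). Atf4 was the 10th, at 0.916. Those most like Gdf15 were Uri1 (0.678), the glutamine transporter gene Slc1a5 (0.665), Stard5 (0.664), Gmppb (0.663) and Cth (0.661), and Fgf21 was the 7th, at 0.655. The values for Gdf15 were lower throughout, on fewer UMIs. The sums share libraries and cell cycle stage, so the coefficients are descriptions across clusters.

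Outside the melanoma-like cells, Gdf15 was highest in macrophages. The immune cells were divided into 8 subclusters, and 314 cells in 2 of them were TAM-like by C1qa, C1qb, C1qc and Lyz2. The larger, with 268 cells led by Cd5l, Cd209f, Gas6 and Folr2, held 218 Gdf15 UMIs at 327 CPM, in 37.3% of its cells. The smaller, with 46 cycling cells, held 29 UMIs at 169 CPM. Cd5l, Cd209f and Folr2 are genes of resident-type macrophages, and Gas6 encodes a ligand of receptors for the uptake of dead cells.

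In TAM-like cells of Atf4WT/WT tumours 1, 3 and 4, Gdf15 was at 257, 280 and 183 CPM, and tumour 2 had 0 UMIs in 6 TAM-like cells. In Atf4Δ/Δ tumours 1 to 4 it was at 197, 367, 158 and 454 CPM. The 7 tumours with at least 10 such cells gave a mean of 271 ± 107 CPM (SD), and the lowest of them lay above every melanoma-like cluster and the CAF-like cells in every tumour. That lowest value, of Atf4Δ/Δ tumour 3, rested on 23 TAM-like cells. Gdf15 UMIs in TAM-like cells were 63 in Atf4WT/WT and 184 in Atf4Δ/Δ tumours. After thinning to 1000 UMIs a Gdf15 UMI was found in 21.5% of TAM-like cells and in 0.223% of melanoma-like cells (36.9% and 1.89% before thinning, at medians of 2514 and 10304 UMIs). Fgf21 did not share this pattern, with 2 UMIs in the TAM-like cells.

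The other immune subclusters held few Gdf15 UMIs. The Inhba/Arg1 subcluster (91 cells, unnamed) held 7 UMIs at 64.5 CPM, the Chil3/Hp/S100a9 subcluster (252 cells, unnamed) held 5 UMIs at 19.1 CPM, and the T/NK-like cells (81) held 1 UMI. The Igkc/Jchain subcluster and the dendritic-like cells held 0 UMIs in 82 and 41 cells. A floor of 3 UMIs is 21.9 and 56.7 CPM there, and the 95% Poisson intervals reach 26.95 and 69.76 CPM (counting error only). An unnamed subcluster of 37 cells with macrophage genes together with Pax3 and Dct held 10 UMIs at 32.4 CPM at a median of 8789 UMIs per cell, and melanoma markers took 1.35% of its UMIs against 0.109% in the TAM-like cells. No doublet caller was applied. The ISR target mean was 4.40 log2 CPM in the larger TAM-like subcluster and 3.82 in the smaller. It was 4.72 in the Chil3/Hp/S100a9, 4.56 in the Inhba/Arg1 and 5.85 in the Pax3 and Dct subcluster. The NRF2 target mean was highest in the TAM-like subclusters, at 5.73 and 5.285, followed by 5.274 in the Pax3 and Dct subcluster. The p53, ER chaperone and hypoxia means were highest in other subclusters. No relation of these lists to Gdf15 was tested.

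**Figure D4:**
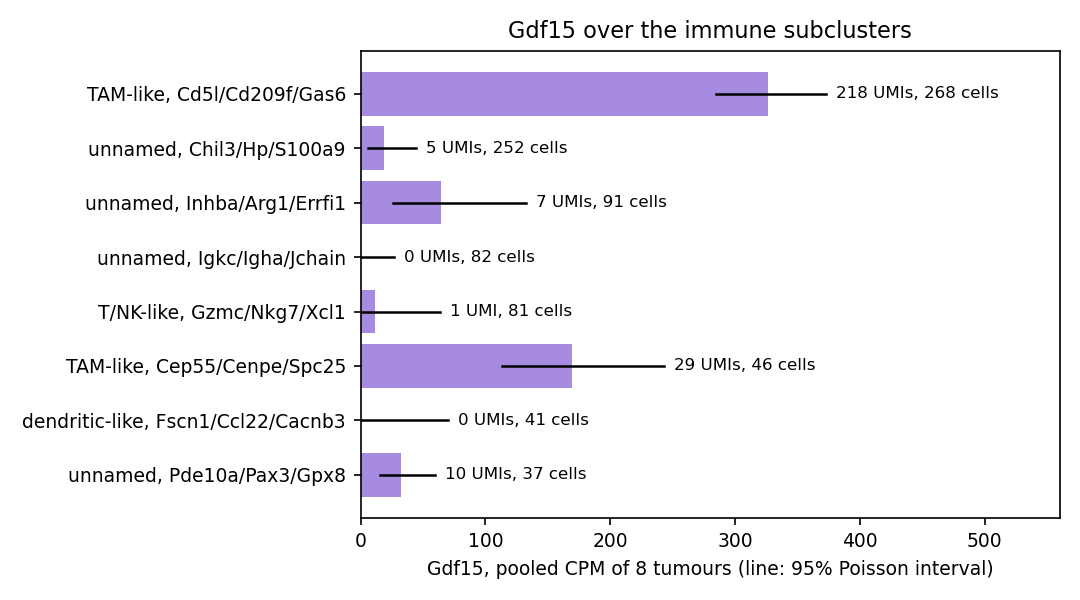
Gdf15 in the 8 immune subclusters, named by class and leading genes, as CPM pooled over 8 tumours (bars) with 95% Poisson intervals for counting error (lines), and the UMIs and cells behind each bar. The larger TAM-like subcluster stands at 327 CPM from 218 UMIs, and the 6 subclusters that are not TAM-like stand at or below 64.5 CPM.

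RNA carried over from lysed cells can give UMIs in cells that do not express a gene, and the marker genes of the source give an expected number. From the melanoma markers in TAM-like cells, 0.167 Gdf15 UMIs would be carried over, and 247 were counted. From the TAM markers in melanoma-like cells, 16.6 of their 596 Gdf15 UMIs would come from TAM-like cells. For Fgf21 in immune cells, 4 UMIs were counted and 4.53 expected. In the Pax3 and Dct subcluster 2 were counted and 2.97 expected, and in the TAM-like cells 2 were counted and 0.623 expected. The origin of these few UMIs was not tested. In CAF-like cells 19 Fgf21 UMIs were counted against 9.74 expected and 16 Gdf15 UMIs against 1.87, but 8 of the 19 were in 1 cell of Atf4Δ/Δ tumour 1.

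An unnamed cluster led by Azgp1, Malat1 and Gm26532 (917 cells with a median of 1582 UMIs and a mitochondrial share of 0.448%) had 68.1 CPM of Fgf21 from 108 UMIs and 27.7 CPM of Gdf15 from 44 UMIs. Levels per tumour ran from 0 to 177 CPM for Fgf21 and from 0 to 61.2 CPM for Gdf15. The 5 Gdf15 UMIs of Atf4WT/WT tumour 2, its highest level, were in 1 cell. Melanoma markers took 3.78% of the UMIs of this cluster against 1.45% in melanoma-like cells, at which 65.8 Fgf21 and 12.9 Gdf15 UMIs would be expected. What these barcodes hold was not tested. The other unnamed clusters, led by Hbb-bs and by Rpgrip1, had 10.4 and 2.47 CPM of Fgf21 from 14 and 4 UMIs.

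The comparison of hosts asks whether loss of Atf4 from the stroma changed either hormone gene, in the tumour cells or in the host cells. The check of the genotype came first. Atf4 was lower in the Atf4Δ/Δ CAF-like cells, at 90.2 to 171 CPM against 278 to 323 CPM (log2 fold change −1.30, SE 0.20, adjusted p = 0.0372 by Benjamini-Hochberg, edgeR quasi-likelihood test, lower in 4 of 4 tumours), and in the immune cells (−1.52, SE 0.22, adjusted p = 0.0334 by the same test). The Atf4 call was lost without any 1 of the Atf4WT/WT tumours or Atf4Δ/Δ tumour 2 or 4 in CAF-like cells, and without Atf4WT/WT tumour 1 or 3 or any 1 of the Atf4Δ/Δ tumours in immune cells, while the ranges of the genotypes did not overlap in either class. It did not pass the test in melanoma-like cells (0.03, SE 0.14, adjusted p = 0.960 by edgeR). Atf4 was at 363 CPM pooled in melanoma-like cells. Melanoma markers took 0.309% of the UMIs of CAF-like cells, against 1.45% in melanoma-like cells. How many Atf4 UMIs of the host cells were carried-over melanoma RNA was not estimated, so the fold changes are those of the counts as they stand. Genes past the threshold made up 0.0431% of those tested in CAF-like cells, 0.0306% in immune cells and 0.0319% in melanoma-like cells.

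In melanoma-like cells, Fgf21 was at 5.12, 12.4, 13.9 and 24.3 CPM in Atf4WT/WT tumours 1 to 4 and at 11.4, 8.43, 6.97 and 12.6 CPM in Atf4Δ/Δ tumours 1 to 4. The Atf4WT/WT tumours held both the lowest and the highest value, and the groups overlapped. The means were 13.9 ± 7.92 and 9.84 ± 2.59 CPM (SD, n = 4 and 4), and the log2 fold change of Atf4Δ/Δ over Atf4WT/WT was −0.52 (SE 0.37, 95% interval −1.42 to 0.38, adjusted p = 0.620, edgeR quasi-likelihood test). No difference of Fgf21 between hosts passed the test, and the interval runs from a fall to a rise. Without Atf4WT/WT tumour 4 the log2 fold change was −0.11, and without Atf4WT/WT tumour 1 it was −0.82.

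Gdf15 in melanoma-like cells was at 1.74, 1.92, 2.65 and 4.11 CPM in Atf4WT/WT tumours 1 to 4 and at 1.61, 3.51, 1.76 and 2.18 CPM in Atf4Δ/Δ tumours 1 to 4. The groups overlapped. The log2 fold change was −0.22 (SE 0.31, 95% interval −0.97 to 0.53, adjusted p = 0.826, edgeR quasi-likelihood test). The share of melanoma-like cells with a UMI, thinned to 3000, was compared as well. It was 2.50 ± 1.24% against 1.56 ± 0.33% for Fgf21 (SD, n = 4 and 4, exact two-sided permutation test p = 0.229, adjusted over the 2 genes 0.457) and 0.669 ± 0.299% against 0.606 ± 0.187% for Gdf15 (exact permutation p = 0.686). The smallest p this design allows is 0.0286.

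In immune cells, Gdf15 was at 96.6, 0, 175 and 68.0 CPM in Atf4WT/WT tumours 1 to 4 and at 113, 250, 142 and 128 CPM in Atf4Δ/Δ tumours 1 to 4. These levels rest on 75 and 195 UMIs, and Atf4WT/WT tumour 2, at 0, had 36 immune cells. The Atf4Δ/Δ values were higher on average, 158 ± 62.3 against 84.9 ± 72.5 CPM (SD, n = 4 and 4), and overlapped with those of Atf4WT/WT. The log2 fold change was 0.74 (SE 0.43, 95% interval −0.31 to 1.78, adjusted p = 0.539, edgeR quasi-likelihood test), from 0.36 without Atf4Δ/Δ tumour 2 to 1.26 without Atf4WT/WT tumour 3.

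The make-up of the immune cells moved with this difference. TAM-like cells were 35.0%, 16.7%, 44.3% and 17.3% of the immune cells in Atf4WT/WT tumours 1 to 4 and 37.5%, 67.2%, 65.7% and 13.2% in Atf4Δ/Δ tumours 1 to 4. The 10 TAM markers summed to 0.976% to 1.59% of the immune UMIs in Atf4WT/WT and to 1.65% to 2.29% in Atf4Δ/Δ tumours, with no overlap, and melanoma markers to 0.132% to 0.627% and 0.102% to 0.401%. Their part in the Gdf15 difference was not tested. Within TAM-like cells the Gdf15 levels of the genotypes overlapped, as listed above. In the same cells Atf4 was at 172 ± 90.6 CPM in Atf4WT/WT (SD, n = 3) and at 75.7 ± 44.8 CPM in Atf4Δ/Δ tumours (SD, n = 4), from 52 and 40 UMIs over all 4 tumours of each genotype.

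**Figure D5:**
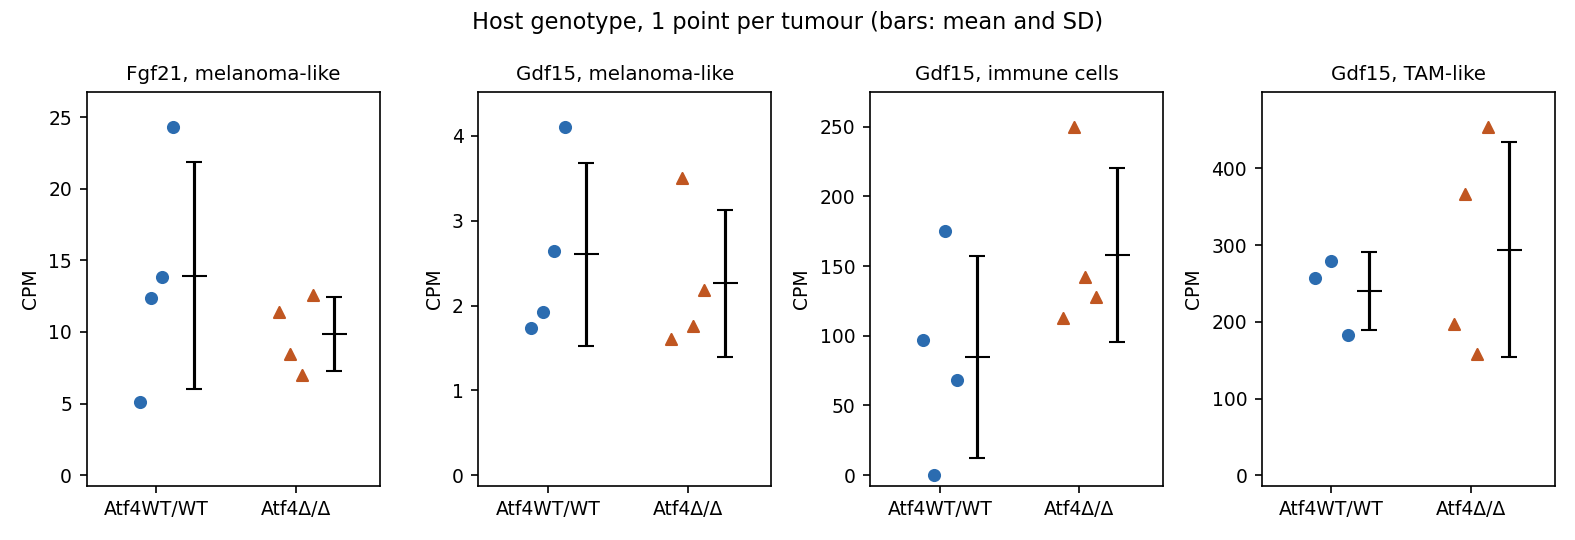
CPM per tumour by host genotype for Fgf21 and Gdf15 in melanoma-like cells and for Gdf15 in all immune cells and in TAM-like cells (tumours with at least 10 such cells, 3 Atf4WT/WT and 4 Atf4Δ/Δ), with mean and SD. The genotypes overlap in all 4 panels, and the mean of immune cells is 84.9 CPM in Atf4WT/WT and 158 CPM in Atf4Δ/Δ tumours.

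In CAF-like cells both hormone genes were below the expression filter of the test. Fgf21 had 3, 0, 0 and 1 UMIs in Atf4WT/WT tumours 1 to 4 and 8, 3, 1 and 3 in Atf4Δ/Δ tumours 1 to 4, and Gdf15 had 0, 3, 2 and 1 against 6, 1, 1 and 2. Counts this small set no order between the genotypes. Melanoma markers took 0.184% to 0.475% of the UMIs of CAF-like cells in Atf4WT/WT and 0.0955% to 0.391% in Atf4Δ/Δ tumours. Whether the genotype effect differed between CAF-like cells and melanoma-like ones was tested in 1 model of both, in which 0.392% of genes passed the threshold, Atf4 among them (−1.27, SE 0.23, adjusted p = 0.000213, edgeR quasi-likelihood test). Fgf21 and Gdf15 entered that model only through their melanoma-like counts, and with 19 and 16 UMIs in CAF-like cells it gives no test of a difference for them.

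For all host cells pooled, Gdf15 had a log2 fold change of 0.66 (SE 0.61, adjusted p = 0.963, edgeR quasi-likelihood test) and Fgf21, with 7 and 16 UMIs, was below the filter. Over all kept cells, which need no clusters, the log2 fold change was −0.55 for Fgf21 (SE 0.39, adjusted p = 0.627, edgeR) and 0.09 for Gdf15 (SE 0.44, adjusted p = 0.954, edgeR). Genes past the threshold were 0% of those tested in both comparisons by edgeR, with 355 and 1370 genes at an unadjusted p under 0.05 and 2 and 123 genes called by DESeq2.

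The gene lists of the stress pathways were likewise not called in melanoma-like cells by genotype. Of all 12555 genes tested, 1426 or 11.4% had an unadjusted p under 0.05. Of 34 ISR targets 32 were tested and 0 passed the edgeR threshold, 4 had an unadjusted p under 0.05 (1 higher and 3 lower in Atf4Δ/Δ hosts), and the median log2 fold change was −0.16 against 0.00 over all genes tested. Phgdh, the first enzyme of serine synthesis, had −0.34 (SE 0.14) and Ddit4, an inhibitor of mTORC1, 0.55 (SE 0.25). Of 16 ER chaperone genes 0 passed, 7 had an unadjusted p under 0.05, all lower in Atf4Δ/Δ hosts, and the median was −0.19, with Pdia6 at −0.32 (SE 0.08) and Hspa5 at −0.38 (SE 0.13). Of 12 tested p53 targets 0 passed and 4 were lower at an unadjusted p under 0.05 (median −0.15, Plk2 −0.42, SE 0.11), and of 12 hypoxia genes 0 passed and 2 were higher (median 0.28, Slc2a1 0.50, SE 0.20, and Vegfa 0.46, SE 0.19). Of 8 interferon genes 0 passed and 4 were lower at an unadjusted p under 0.05 (median −0.77), and 0 of the S-phase, G2/M and NRF2 genes and ISR regulators had such a p. None of these is a called change by edgeR after adjustment. DESeq2 called 117 genes of any kind in the same sums.

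Across the 8 tumours, 3 relations between melanoma-like levels were computed. Fgf21 and Gdf15 had Pearson r = 0.607 (exact permutation p = 0.113, adjusted 0.167) and Spearman rho = 0.595 (exact permutation p = 0.132), and r fell to 0.0581 without the 2 tumours farthest from the median of Fgf21, Atf4WT/WT 1 and 4. Fgf21 and the ISR target mean had r = 0.547 (exact permutation p = 0.167) and rho = 0.619 (exact permutation p = 0.115), and r was −0.163 without the same 2 tumours. Gdf15 and the ISR target mean had r = 0.842 (exact permutation p = 0.0120, adjusted 0.0359) and rho = 0.738 (exact permutation p = 0.0458, adjusted 0.132), and r was 0.607 (exact permutation p = 0.210) without Atf4WT/WT tumour 4 and Atf4Δ/Δ tumour 2. The relation of Gdf15 thus rested on those 2 tumours for its call, with 6 tumours left. In CPM of the raw total over all 8 tumours it had r = 0.876 (exact permutation p = 0.00494, adjusted 0.0148). Its rho was then 0.881 (exact permutation p = 0.00724, adjusted 0.0217). The relations were not computed within a genotype.

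The receptor genes differed widely in level. Klb, the co-receptor that FGF21 needs, had 2 UMIs in all 28169 cells and Kl, the co-receptor of other endocrine FGFs, had 3. Fgfr1 was mostly in CAF-like cells, at 259 ± 69.3 CPM (SD, n = 8), against 1.29 CPM pooled in melanoma-like and 20.1 CPM in immune cells, and Fgfr2, Fgfr3 and Fgfr4 had 10, 151 and 7 UMIs in all cells. Gfral had 0 UMIs, where a floor of 3 UMIs is 0.0117 CPM in melanoma-like cells and 0.779 CPM in CAF-like cells. Its partner Ret had 55 UMIs, of which 52 were in CAF-like cells at 13.5 CPM. The other endocrine FGF genes, Fgf15 and Fgf23, had 2 and 3 UMIs.

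Enzymes known to process these hormones were found in both compartments. Furin, one of the convertases that cleave the GDF15 precursor, was at 20.6 CPM pooled in melanoma-like, 74.3 in CAF-like and 124 in immune cells, and the convertase gene Pcsk7 was at 13.1, 16.1 and 15.04 CPM. Pcsk5 and Pcsk6 were at 104 and 10.6 CPM in CAF-like cells and at or under 0.0739 CPM in melanoma-like cells. Mmp14, whose product cleaves GFRAL, was at 84.3, 394 and 74.6 CPM in the same order. Fap, whose product cleaves FGF21 and which marks fibroblasts, was at 39.7 CPM in CAF-like and 0.0855 CPM in melanoma-like cells. Of the receptor and processing genes tested by genotype, Fgfr1 in melanoma-like cells had a log2 fold change of 0.43 (SE 0.18, adjusted p = 0.406, edgeR quasi-likelihood test) and Furin in immune cells 0.96 (SE 0.30, adjusted p = 0.334, edgeR), and 0 passed the threshold in any class.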

How the data were processed

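Raw UMI counts per gene and barcode were deposited for each of the 8 tumours, made by the authors with Cell Ranger 3.1.0 on GRCm38 (Seurat 3.2.1 is also named in the submitters' notes). The deposited counts were used as they stand, with 0 columns of other series. UMIs count molecules at the 3′ end, and intervals cover counting error only. Cells were filtered as in the study (200 to 5000 genes, at most 7.5% mitochondrial UMIs, genes in 3 or more cells) and clustered per the study's integration in Seurat 5.3.0 (2000 variable genes, 20 components, resolution 0.7), with Fgf21 and Gdf15 left out of the clustering genes. Clusters were named X-like from fixed marker lists, since no annotation of cells was used here. The study's own names may therefore differ. No doublet caller was run.

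Cells are not replicates, so UMIs were summed per tumour and class and tested with edgeR 4.0.16 (quasi-likelihood, TMM, filterByExpr, Benjamini-Hochberg over all genes, threshold 0.05, R 4.3.3). DESeq2 1.42.0, other size factors, no filter, host sex, a replicate block, other clusterings and cell filters, and each tumour left out in turn were alternatives. Nothing in the labels says more than that the tumours are biological replicates. Replicates of a group differed by far more than sampling noise (chi-square per gene of 10.8 to 42.6). The members, gene lists and tests were chosen with earlier results of these data known. Genes named beside the members are the receptors and processing genes, up to 3 per list with the smallest unadjusted p by genotype or the largest difference in the cluster highest in a member, the 5 leading genes of a cluster and the 5 genes most like a member. Named beyond that rule, after their values were seen, were the ISR targets Slc7a5, Shmt2, Slc7a3 and Stc2, the later leading genes Car9, Bnip3 and Ndrg1, the genes leading clusters at the finer resolution, and Atf4 and Fgf21 as lower ranks of likeness. The scripts were tested on simulated data.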

Additional observations from a re-analysis of the deposited data

Results flagged for a closer look

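Within the groups of 4 tumours, 54 sets of values were examined for a tumour set apart from the other 3, and 6 were found. The limit used gives about 1 in 20 by chance for independent, normally distributed values. Several of these sets are low counts with zeros and some share cells, so that rate does not hold here and no excess can be read from them. For Fgf21 these were the immune cells (2.03 CPM) and the TAM-like cells (3.11 CPM) of the Atf4Δ/Δ group, where tumour 2 held the only UMI, the Cenpf/Ube2c cluster of the Atf4Δ/Δ group, where tumour 2 had 6.32 CPM against 0.743 to 1.54 CPM in the others, and the Cenpa/Ccnb2 cluster of the Atf4WT/WT group, where tumour 4 had 6.83 CPM against 0.295 to 1.27 CPM. For Gdf15 these were the Pgf/Espn cluster of the Atf4WT/WT group, where tumour 4 had 3.72 CPM against 0.555 to 0.923 CPM, and the share of melanoma-like cells with a UMI in the Atf4Δ/Δ group, where tumour 2 had 0.884% against 0.484% to 0.541%. In the immune and TAM-like cells both values rest on the same 1 UMI.

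UMIs of both hormone genes were also found in barcodes that the report does not use. The 13016 barcodes above the mitochondrial limit held 831 Fgf21 UMIs (8.83 ± 6.46 CPM, SD of 8 tumours) and 270 Gdf15 UMIs (3.00 ± 1.19 CPM), at a median of 6860.5 UMIs per barcode. These levels lie near those of the kept barcodes, 12.0 ± 5.95 and 3.67 ± 1.95 CPM. The 497 barcodes above the gene limit held 45 and 15 UMIs. The removed cluster of 242 cells held 24 Fgf21 UMIs.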

How the results depend on the processing

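No Fgf21 or Gdf15 genotype difference passed the threshold under any alternative run. Their adjusted p in melanoma-like cells ran from 0.313 to 0.937 for Fgf21 and from 0.497 to 0.952 for Gdf15, and for Gdf15 in immune cells from 0.366 to 0.851. The number of genes called in melanoma-like cells was 4 by edgeR, 117 by DESeq2, 47 with every gene of at least 1 count and 0 with host sex as a term. In CAF-like cells it was 2, 4, 103 and 0 in the same order, and 0 with both hormone genes among the clustering genes. In immune cells it was 1, and 83 with every gene and 0 with sex. In host cells it was 0, and 2 by DESeq2 and 20 with every gene, and in all kept cells 0, and 123 by DESeq2.

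The replicate block left 0 called genes in melanoma-like, CAF-like and immune cells and turned Gdf15 in all kept cells to −0.00126. The replicate numbers pair nothing (correlations of deviations −0.0547, −0.356, −0.152 and −0.221), so the block is an alternative only. In the model of CAF-like minus melanoma-like cells, which gives no test of the hormone genes, Gdf15 turned to −0.051 with other size factors and −0.041 with every gene. Without its 2 most distant tumours, the relation of Fgf21 with the ISR targets turned to r = −0.163 and that of Gdf15 fell to 0.607. The highest Gdf15 level of a melanoma-like cluster was 7.81 CPM at the finer resolution.

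With 1 tumour left out, called genes ranged from 0 to 21 in melanoma-like, 0 to 2 in CAF-like, 0 to 2 in immune, 0 to 1 in host and 0 to 2 in all kept cells, and from 25 to 93 in the model of both classes. Without CAF-like cells over the melanoma marker limit 0 genes were called, so the Atf4 call there depends on those cells and tumours. Log2 fold changes ranged from −0.82 to −0.11 (Fgf21) and −0.50 to 0.0789 (Gdf15) in melanoma-like cells, 0.36 to 1.26 (Gdf15) in immune, −0.28 to 1.19 (Gdf15) in host, −0.84 to −0.14 (Fgf21) and −0.45 to 0.40 (Gdf15) in all kept cells, and 0.61 to 3.04 (Fgf21) and −1.03 to 0.81 (Gdf15) in the model of both classes. The difference in shares ranged from −1.37 to −0.416 (Fgf21) and −0.156 to 0.0823 percentage points (Gdf15). Causes were not tested. Depth limits Fgf21 and Gdf15 in CAF-like cells, at 19 and 16 UMIs.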
